A study of Mus musculus with 18 samples.

Results

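The coagulation and complement cascades were followed through 42 genes in mouse liver tumors and in a cell line, by RNA sequencing. The 42 genes were picked by name from the 43346 genes of the tumor table, 19 of complement and 23 of coagulation and fibrinolysis, and all 42 were found and passed the filter on low counts, which left 18318 genes. Tumors of both models carried myr-AKT, an activated form of the kinase AKT, and they differed in the form of YAP delivered with it. YAP-SY tumors had received YAP S127A/Y357F, in which a serine and a tyrosine are replaced, and YAP-S tumors had received YAPS127A, in which the tyrosine is kept. The labels divide each model into tumors called CCA (cholangiocarcinoma, a bile duct cancer) and tumors called mixed. There were thus 4 groups of 3 tumors: YAP-SY CCA, YAP-S CCA, YAP-SY mixed and YAP-S mixed. Strain, age, sex and the promoters used are not given in the sources used here, and nothing says whether each tumor nodule came from a mouse of its own, so p-values measure the spread between nodules. SB1 is a cell line with the genotype label of YAP-S CCA, measured in 3 samples, and whether these were separate cultures is not stated. Whole tumor RNA mixes the RNA of all cell types present, and fewer cells of a type and less RNA per cell cannot be told apart in it.

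Complement is a chain of plasma proteases that marks and perforates target cells. Lectins or antibodies start it, C3 is its hub, and the terminal components assemble into the pore. Coagulation is another protease chain that ends when thrombin turns fibrinogen into fibrin, and fibrinolysis dissolves that clot again. Hepatocytes are the textbook source of most of these plasma proteins, and liver transcription factors such as HNF4 alpha and C/EBP alpha are known to drive many of their genes. The label of the tumors was set against marker genes: in CCA tumors the 14 measured hepatocyte markers summed to 154332 to 171151 CPM (counts brought to a common library size, with scaling for composition) in YAP-SY and to 54467 to 68837 CPM in YAP-S. The 15 cholangiocyte markers summed to 2837 to 4380 CPM in YAP-SY CCA and to 7723 to 11133 CPM in YAP-S CCA. In mixed tumors the hepatocyte markers summed to 94042 to 125462 CPM in YAP-SY and to 93403 to 99347 CPM in YAP-S, and the cholangiocyte markers to 4460 to 16668 CPM in YAP-SY and to 9633 to 10342 CPM in YAP-S. By these sums the YAP-SY tumors labelled CCA held more hepatocyte and less cholangiocyte marker RNA than every mixed tumor. The sums go against that label, and the names CCA and mixed are kept here as labels only. They rest largely on Alb and on Spp1, which was at 4074, 2717 and 3032 CPM in YAP-SY CCA. Against mixed YAP-SY tumors 14 of the 15 cholangiocyte markers had a negative log2 fold change. Not every marker was lower in each tumor: Krt19 was at 15.6 CPM in YAP-SY CCA tumor 1, against 4.72 CPM in YAP-S mixed tumor 2 and 3.94 CPM in YAP-SY mixed tumor 5. Sequencing depth lay between 30656499 and 130035221 counts a tumor, and the number of genes detected between 18207, in YAP-SY CCA tumor 1, and 24391.

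In CCA tumors 38 of the 42 genes were higher in YAP-SY than in YAP-S at an adjusted p under 0.05, 1 was lower and 3 did not pass. Over all 18318 tested genes 18.3% were called higher and 20.8% lower in this comparison. Both cascades rose: 16 of 19 complement genes and 22 of 23 coagulation and fibrinolysis genes were higher, with median folds of 2.05 and 2.20, beside 1.0 for all tested genes. The gene that was lower was F13a1, and the 3 that did not pass were C3, C4b and Cfp. For 36 members all 3 YAP-SY tumors lay above all 3 YAP-S tumors, as did 24.3% of all tested genes, and for 2 members, F13a1 and Cfp, all 3 lay below, as did 28.3% of all tested genes. The hepatocyte markers moved with the members, 12 of 14 being higher, and their part in the result was not tested.

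These counts lean on the scaling of the libraries. On library size alone, with no correction for composition, the median log2 fold change of all genes moved by -0.56 and 25 members were called higher and 2 lower, with a median over the members of 0.52. All genes then split into 760 higher and 8064 lower, against 3358 higher and 3813 lower on the scaling used here. With each CCA tumor left out in turn, 15 to 16 complement and 16 to 20 coagulation genes stayed above the threshold, and 31 of the 38 genes passed in all 6 of these fits. The other 7 were C8g, F12, F11, F7, Proc, Pros1 and Vtn. Without YAP-SY CCA tumor 1, the library with the fewest detected genes, 16 complement and 19 coagulation genes were higher.

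**Figure D1:**
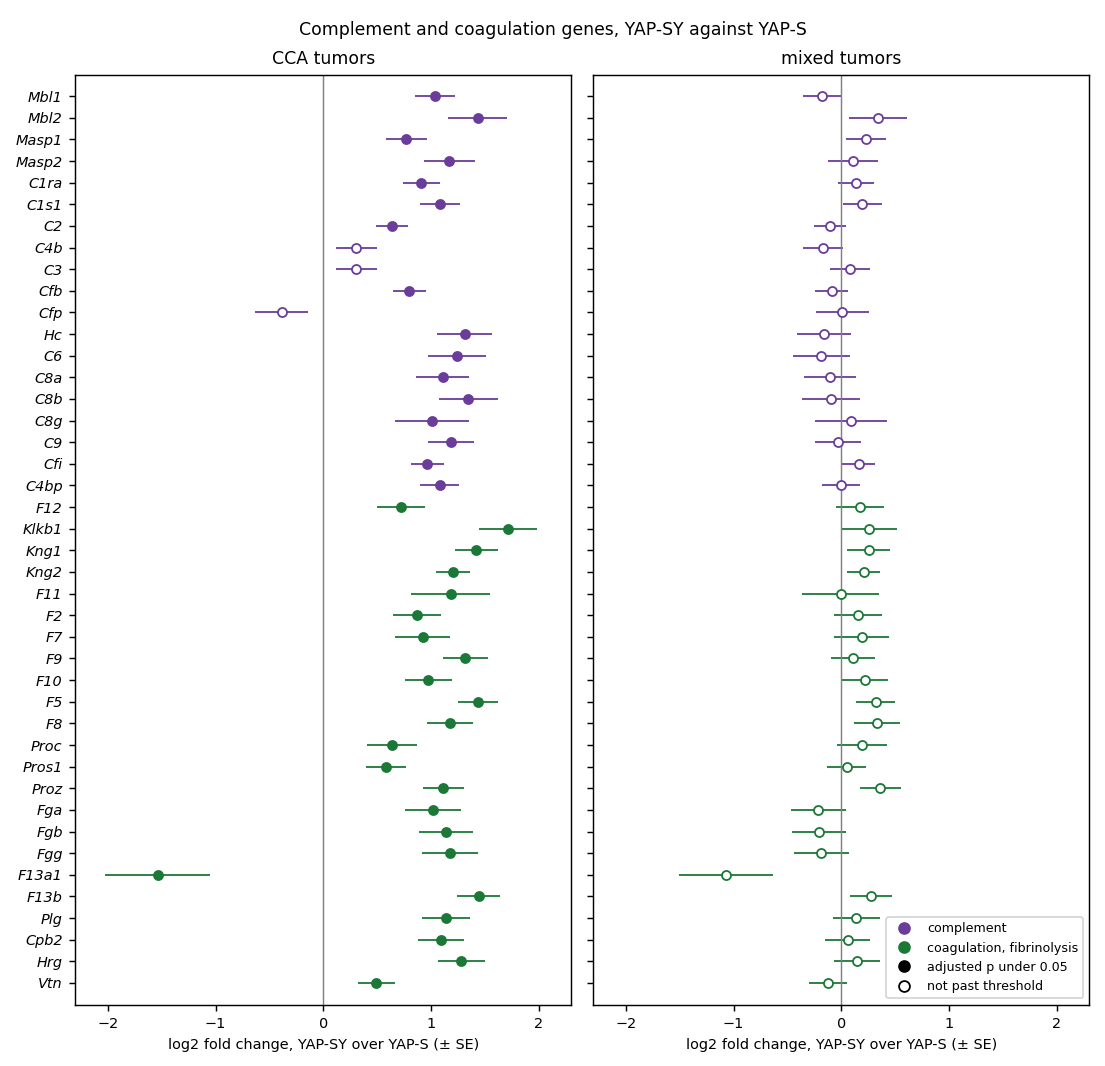
Log2 fold change of each gene, YAP-SY over YAP-S, with its standard error, in CCA tumors (left) and mixed tumors (right); filled points have an adjusted p under 0.05. In CCA 38 points are filled right of 0 and F13a1 is filled left of it, while no point is filled in mixed tumors.

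Promoters were read for the fibrinogen genes, which lie side by side and moved together in tumors, for Klkb1, which had the highest fold, and for C3, which did not pass; the choice was made after the values were seen. The sequences below are the 250 bases before the transcription start that RefSeq gives on GRCm38.p6, each on its own strand. Capitals mark any of the 5 motifs searched on both strands: TATAAA for the TATA box, CCAAT for the box of that name, CAAAGTC for HNF4, TTGCAA for C/EBP and GGAATG for TEAD factors, the partners of YAP on DNA. An HNF1 half-site (GTTAAT) had also been planned but was not searched, so its letters are not capitalized. It can be read on the reverse strand, as ATTAAC, in the printed bases of Fga and Fgb. Fga is at chr3:83025903-83026152 (plus strand), Fgb at chr3:83049864-83050113 (minus), Fgg at chr3:83007474-83007723 (plus), Klkb1 at chr8:45294836-45295085 (minus) and C3 at chr17:57228137-57228386 (minus).
Fga: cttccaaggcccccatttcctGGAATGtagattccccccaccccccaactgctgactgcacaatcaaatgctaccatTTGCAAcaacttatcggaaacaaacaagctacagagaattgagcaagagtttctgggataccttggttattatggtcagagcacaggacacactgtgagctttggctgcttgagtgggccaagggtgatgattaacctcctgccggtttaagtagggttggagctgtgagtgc
Fgb: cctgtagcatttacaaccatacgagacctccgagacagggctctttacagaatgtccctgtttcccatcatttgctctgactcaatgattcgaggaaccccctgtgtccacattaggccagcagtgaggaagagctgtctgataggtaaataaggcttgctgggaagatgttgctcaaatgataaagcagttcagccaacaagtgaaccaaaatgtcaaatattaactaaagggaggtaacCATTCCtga
Fgg: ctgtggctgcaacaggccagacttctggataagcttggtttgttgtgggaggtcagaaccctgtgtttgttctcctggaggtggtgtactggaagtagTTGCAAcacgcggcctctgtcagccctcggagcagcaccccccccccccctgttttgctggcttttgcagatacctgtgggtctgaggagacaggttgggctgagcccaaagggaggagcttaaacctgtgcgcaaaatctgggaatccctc
Klkb1: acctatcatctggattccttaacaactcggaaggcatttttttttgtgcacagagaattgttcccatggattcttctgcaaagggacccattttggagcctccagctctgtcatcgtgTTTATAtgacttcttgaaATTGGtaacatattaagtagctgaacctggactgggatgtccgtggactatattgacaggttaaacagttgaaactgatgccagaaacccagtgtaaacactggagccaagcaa
C3: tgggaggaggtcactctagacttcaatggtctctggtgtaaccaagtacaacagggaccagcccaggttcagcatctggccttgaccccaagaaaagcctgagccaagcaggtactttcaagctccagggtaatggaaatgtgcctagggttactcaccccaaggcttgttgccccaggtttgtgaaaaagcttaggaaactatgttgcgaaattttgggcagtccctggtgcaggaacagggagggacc
Fga holds the C/EBP letters, 173 bases before its start, and the TEAD letters, 229 bases before it, and in Fgb the TEAD letters stand 9 bases before the start as CATTCC. Fgg holds the C/EBP letters 152 bases before its start. In Klkb1 the TATA letters lie 132 bases and the CCAAT letters 114 bases before the start, both on the reverse strand. C3 has none of the 5 searched motifs in the printed bases, and its TATA letters begin 14 bases after the RefSeq start.

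The table held promoters of 34 of the 42 genes, 14 of complement and 20 of coagulation, as 37 sequences of 300 bases that run 250 bases before and 50 bases after the start. The TEAD letters occurred in 29.7% of these 37 promoters, against 14.7% of all 32851 promoters in the table, and the C/EBP letters in 13.5% against 6.23%. For the TATA box the shares were 13.5% and 13.6%, for the CCAAT box 24.3% and 37.4%, and for the HNF4 letters 2.70% and 4.44%. Matches of so few letters are descriptions of these windows and not binding sites.

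The lectin pathway, which starts complement on sugar surfaces, had all 4 genes higher in YAP-SY CCA. Values of a group are given by tumor number: YAP-SY CCA holds tumors 1, 6 and 8, YAP-S CCA tumors 3, 4 and 5, YAP-SY mixed tumors 3, 5 and 9, and YAP-S mixed tumors 2, 7 and 9. Mbl1, one of the mouse mannose-binding lectins (ENSMUSG00000037780, at 41151456 to 41158959 of chromosome 14), was at 242, 278 and 229 CPM in YAP-SY CCA, against 119.8, 144 and 102 CPM in YAP-S CCA. Mbl1 was 2.05-fold higher in YAP-SY without overlap (log2 fold change 1.03 ± 0.19 SE, adjusted p = 0.00129). Mbl2, the other mannose-binding lectin, was at 556, 421 and 412 CPM in YAP-SY CCA, against 191, 202 and 121 CPM in YAP-S CCA. Mbl2 was 2.70-fold higher in YAP-SY without overlap (log2 fold change 1.43 ± 0.27 SE, adjusted p = 0.00176). The proteases that ride on these lectins were higher by 2.25-fold (Masp2) and 1.71-fold (Masp1). Reads of Masp2 may be shared with Tardbp, whose annotation overlaps it and whose mean count was 77.5% of that of Masp2.

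The classical pathway, started by antibody, had 3 of its 4 genes higher. C1s1 and C1ra encode the proteases of the C1 complex. C1s1 was at 861, 1011 and 792 CPM in YAP-SY CCA, against 413, 467 and 378 CPM in YAP-S CCA, and C1ra was at 331, 317 and 308 CPM in YAP-SY CCA, against 167, 202 and 140.3 CPM in YAP-S CCA. C1s1 was 2.12-fold higher in YAP-SY without overlap (log2 fold change 1.08 ± 0.18 SE, adjusted p = 0.000863), and C1ra was 1.88-fold higher in YAP-SY without overlap (log2 fold change 0.91 ± 0.17 SE, adjusted p = 0.00151). C2, which supplies the protease of the C3-cleaving enzyme, was 1.55-fold higher (adjusted p = 0.00529). C4b, the main mouse gene of C4, the partner of C2 in that enzyme, was at 1928, 1345 and 1663 CPM in YAP-SY CCA, against 1402, 1340.0 and 1252 CPM in YAP-S CCA, and the groups overlapped (log2 fold change 0.31 ± 0.19 SE, adjusted p = 0.217). Each of these 4 genes has a near copy or an overlapping gene that could take reads. C1rb, C1s2 and C4a held 6.85%, 2.44% and 5.30% as many counts as C1ra, C1s1 and C4b, and Gm20547, a predicted gene that spans C2 and Cfb, held a mean of 78189 counts, 103% of those of Cfb and 827% of those of C2.

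C3 is the protein that all starting routes cleave, and it was the complement gene with the most RNA per length in these tumors (a mean of 1822 CPM per kilobase over the 12 tumors). C3 reached 12519, 8731 and 9655 CPM in YAP-SY CCA, against 7960.0, 8150.3 and 8881 CPM in YAP-S CCA. YAP-SY tumors 1 and 8 lay above all YAP-S tumors and YAP-SY tumor 6 below YAP-S tumor 5, so the groups overlapped, and the difference did not pass (log2 fold change 0.31 ± 0.19 SE, adjusted p = 0.213). Cfb, the protease of the alternative pathway, was at 1934, 1532 and 1737 CPM in YAP-SY CCA, against 1016, 1088 and 889 CPM in YAP-S CCA. Cfb was 1.74-fold higher in YAP-SY without overlap (log2 fold change 0.80 ± 0.15 SE, adjusted p = 0.00180). Properdin (Cfp), which stabilizes that pathway's enzyme and is known mainly from myeloid cells, was at 19.7, 13.3 and 18.4 CPM in YAP-SY CCA, against 20.6, 23.3 and 23.3 CPM in YAP-S CCA. All 3 YAP-SY tumors were below the YAP-S tumors, but the difference did not pass (log2 fold change -0.39 ± 0.25 SE, adjusted p = 0.231), and on library size alone it was called lower (-0.95). Macrophage markers gave 5 higher and 3 lower and neutrophil markers 0 and 5, and the part of these cells in the Cfp values was not tested. C3, C4b and Cfp are the complement genes that stayed uncalled in each leave-one-out fit.

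The terminal pathway builds the pore, and its 6 genes were higher together by 2.01-fold to 2.54-fold. Hc, the mouse gene of C5 (ENSMUSG00000026874, at 34983331 to 35061438 of chromosome 2), was at 2379, 2174 and 1599 CPM in YAP-SY CCA, against 779, 1056 and 648 CPM in YAP-S CCA. Hc was 2.48-fold higher in YAP-SY without overlap (log2 fold change 1.31 ± 0.26 SE, adjusted p = 0.00196). C9, the subunit that lines the pore, was at 1388, 1241 and 901 CPM in YAP-SY CCA, against 486, 592 and 478 CPM in YAP-S CCA. C9 was 2.27-fold higher in YAP-SY without overlap (log2 fold change 1.18 ± 0.21 SE, adjusted p = 0.00132). C6, C8a and C8b were higher by 2.36-fold, 2.15-fold and 2.54-fold. C8g was 2.01-fold higher (adjusted p = 0.0327), passed in 2 of the 6 leave-one-out fits, and overlaps Fbxw5, which had 26.4% as many counts. Per length C8b was at 0.613 to 0.758 of C8a in YAP-SY CCA and at 0.539 to 0.645 in YAP-S CCA, and these ranges overlapped.

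Both inhibitors that act in plasma were higher in YAP-SY CCA, while C3 and C4b, whose fragments they act on, did not pass. Factor I (Cfi), the protease that inactivates C3b and C4b, was at 1049, 954 and 865 CPM in YAP-SY CCA, against 504, 519.6 and 447 CPM in YAP-S CCA. Cfi was 1.95-fold higher in YAP-SY without overlap (log2 fold change 0.96 ± 0.15 SE, adjusted p = 0.000587). C4bp, its cofactor on C4b, was at 969, 1251 and 865 CPM in YAP-SY CCA, against 522, 485 and 456 CPM in YAP-S CCA. C4bp was 2.11-fold higher in YAP-SY without overlap (log2 fold change 1.08 ± 0.18 SE, adjusted p = 0.000808). Both genes passed in all 6 leave-one-out fits.

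The contact system starts clotting on foreign surfaces and releases bradykinin. Its kininogens had the smallest p-values of the role. Kng1 (ENSMUSG00000022875, at 23057865 to 23082068 of chromosome 16) was at 3209.7, 3343 and 2668 CPM in YAP-SY CCA, against 1205, 1312 and 932 CPM in YAP-S CCA. Kng1 was 2.67-fold higher in YAP-SY without overlap (log2 fold change 1.42 ± 0.20 SE, adjusted p = 0.000324). Kng2 was at 436, 442 and 354 CPM in YAP-SY CCA, against 187, 188 and 159.9 CPM in YAP-S CCA. Kng2 was 2.3-fold higher in YAP-SY without overlap (log2 fold change 1.2036 ± 0.16 SE, adjusted p = 0.000211). Kng1 and Kng2 are alike in sequence, so part of their reads may be exchanged between them. Klkb1, plasma kallikrein, which cuts kininogen, had the highest fold of the 42 genes and is named after its values were seen: it was at 247, 392.01 and 271 CPM in YAP-SY CCA, against 87.7, 120.4 and 69.6 CPM in YAP-S CCA. Klkb1 was 3.28-fold higher in YAP-SY without overlap (log2 fold change 1.71 ± 0.27 SE, adjusted p = 0.000544). It overlaps Cyp4v3, whose mean count was 302% of its own. F12 and F11 were higher by 1.65-fold and 2.27-fold, but in each the groups overlapped, and F12 passed in 2 and F11 in 3 of the 6 leave-one-out fits.

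**Figure D2:**
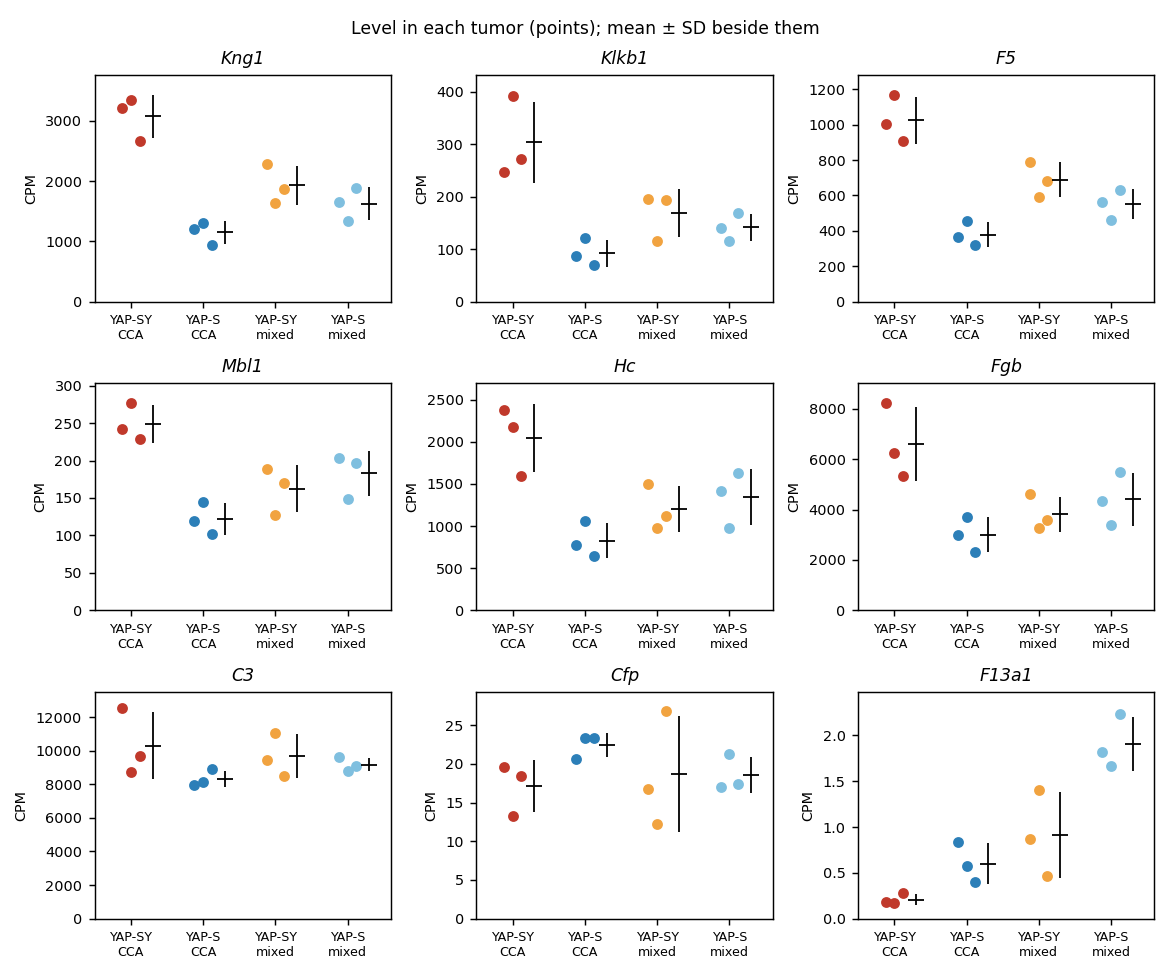
CPM of 9 genes in each tumor (points) with the group mean and SD beside them; axes start at 0 and differ between panels. The upper 6 genes have their YAP-SY CCA tumors above all YAP-S CCA tumors, C3 overlaps, and Cfp and F13a1 have them below.

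Among the vitamin K dependent proteases all 4 genes were higher. F9, missing in hemophilia B, was at 205, 313 and 190.1 CPM in YAP-SY CCA, against 95.3, 105 and 84.0 CPM in YAP-S CCA. F9 was 2.49-fold higher in YAP-SY without overlap (log2 fold change 1.31 ± 0.21 SE, adjusted p = 0.000624). F10, which makes thrombin from prothrombin, was at 477, 297 and 421 CPM in YAP-SY CCA, against 214, 235 and 160.5 CPM in YAP-S CCA. F10 was 1.96-fold higher in YAP-SY without overlap (log2 fold change 0.97 ± 0.22 SE, adjusted p = 0.00422). Prothrombin (F2) and F7, which starts the tissue factor pathway, were 1.82-fold and 1.89-fold higher, and F7 did not pass once YAP-S CCA tumor 5 was left out.

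Both cofactors were higher. F5, the cofactor of F10, was at 1002, 1168 and 906 CPM in YAP-SY CCA, against 366, 454 and 317 CPM in YAP-S CCA. F5 was 2.71-fold higher in YAP-SY without overlap (log2 fold change 1.44 ± 0.19 SE, adjusted p = 0.000217). F8, the cofactor of F9, was at 31, 44.5 and 30.7 CPM in YAP-SY CCA, against 14.3, 19.7 and 12.9 CPM in YAP-S CCA. F8 was 2.26-fold higher in YAP-SY without overlap (log2 fold change 1.17 ± 0.21 SE, adjusted p = 0.00131). F8 is known to be made largely by endothelial cells of the liver sinusoids, and the 12 endothelial markers summed to 648 to 805 CPM in YAP-SY CCA and to 534 to 703 CPM in YAP-S CCA, with 3 higher, 3 lower and none of them at 0. The part of these cells in the F8 result was not tested. Fundc2, which overlaps F8, held 73.3% as many counts.

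Of the genes that hold clotting back, all 3 were higher. Protein Z (Proz), a cofactor in the inhibition of F10, was at 415, 332 and 374 CPM in YAP-SY CCA, against 179, 199 and 140.2 CPM in YAP-S CCA. Proz was 2.16-fold higher in YAP-SY without overlap (log2 fold change 1.11 ± 0.19 SE, adjusted p = 0.000987). Protein S (Pros1), the cofactor of protein C, was at 96.7, 136 and 92.1 CPM in YAP-SY CCA, against 79.4, 73.1 and 64.5 CPM in YAP-S CCA. Pros1 was 1.497-fold higher in YAP-SY without overlap (log2 fold change 0.58 ± 0.18 SE, adjusted p = 0.0248). Protein C itself (Proc) was 1.56-fold higher (adjusted p = 0.0451). Pros1 passed in 3 and Proc in 1 of the 6 leave-one-out fits, whereas Proz passed in all of them.

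Fibrinogen was the most abundant product of the coagulation genes, and its 3 chains were higher by 2.02-fold (Fga), 2.20-fold (Fgb) and 2.25-fold (Fgg). Fgb (ENSMUSG00000033831, at 83040141 to 83049863 of chromosome 3) was at 8221, 6230.1 and 5347 CPM in YAP-SY CCA, against 2978, 3701 and 2304 CPM in YAP-S CCA. Fgb was 2.20-fold higher in YAP-SY without overlap (log2 fold change 1.14 ± 0.25 SE, adjusted p = 0.00389). Together the 3 genes took 1.40% to 2.20% of all counts in YAP-SY CCA tumors and 0.975% to 1.36% in YAP-S CCA tumors. Per length Fga was at 1.48 to 1.71 times Fgb in YAP-SY CCA and at 1.71 to 1.83 times in YAP-S CCA, and Fgg at 1.56 to 1.69 and 1.55 to 1.61 times. The log2 ratio of Fgg to Fgb differed by 0.028 (exact permutation test, two-sided, p = 0.6; 0.1 is the smallest p that 3 against 3 tumors allow). Its counterpart for Fga to Fgb differed by -0.14 (exact permutation p = 0.1, adjusted p = 0.3 over 30 such tests).

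The subunits of factor XIII, which cross-links fibrin, parted. F13b, the carrier subunit made in the liver, was at 248, 350.2 and 257 CPM in YAP-SY CCA, against 102, 126 and 86.8 CPM in YAP-S CCA. F13b was 2.71-fold higher in YAP-SY without overlap (log2 fold change 1.44 ± 0.20 SE, adjusted p = 0.000279). F13a1, the catalytic subunit, known from macrophages and platelets (ENSMUSG00000039109, at 36867178 to 37050244 of chromosome 13), was at 0.181, 0.168 and 0.278 CPM in YAP-SY CCA, against 0.838, 0.570 and 0.398 CPM in YAP-S CCA. These are low levels, 6 to 10 counts in a YAP-SY CCA tumor and 17 to 83 in a YAP-S CCA tumor. The groups did not overlap, and F13a1 was 2.90-fold lower (log2 fold change -1.54 ± 0.49 SE, adjusted p = 0.0247). F13a1 no longer passed once YAP-SY CCA tumor 1 or 6, or YAP-S CCA tumor 3, was left out (log2 fold change -1.79 to -1.23 over all 6 leave-one-out fits), under limma-voom, and when only the CCA tumors were fitted. Beside it, the 10 platelet and megakaryocyte markers summed to 3.97 to 6.62 CPM in YAP-SY CCA and to 6.999 to 8.92 CPM in YAP-S CCA, with 2 of the 5 tested lower (Pf4 and Gp1bb). The 12 macrophage and Kupffer cell markers summed to 551 to 679 CPM in YAP-SY CCA and to 513 to 925 CPM in YAP-S CCA, with 5 higher, 3 lower and none at 0. The part of either cell type in the F13a1 result was not tested.

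In fibrinolysis all 4 genes were higher. Hrg, a plasma protein that binds plasminogen, was at 1139.8, 1037 and 918 CPM in YAP-SY CCA, against 427, 522 and 325 CPM in YAP-S CCA. Hrg was 2.43-fold higher in YAP-SY without overlap (log2 fold change 1.28 ± 0.21 SE, adjusted p = 0.000838). Cpb2, a carboxypeptidase that slows clot lysis by trimming fibrin, was at 464, 493 and 388 CPM in YAP-SY CCA, against 217, 252 and 163 CPM in YAP-S CCA. Cpb2 was 2.13-fold higher in YAP-SY without overlap (log2 fold change 1.09 ± 0.21 SE, adjusted p = 0.00185). Plasminogen (Plg), the precursor of plasmin, was 2.20-fold higher (adjusted p = 0.00192). Vitronectin (Vtn), which steadies the inhibitor PAI-1, was at 2967, 1956 and 2773 CPM in YAP-SY CCA, against 1751, 1813 and 1909 CPM in YAP-S CCA. Its 1.41-fold rise (adjusted p = 0.041) was the lowest of the 38, passed in 1 of the 6 leave-one-out fits, and on library size alone stood at -0.070, uncalled.

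Since hepatocyte markers moved with the members, the CCA fit was repeated on another scale, a step added after the values had been seen. Each tumor was scaled by the mean log2 CPM of the 14 hepatocyte markers, so that every marker had the same weight, unlike in the sums above. Relative to these 14 markers 36 of the 42 genes were not called, 1 was higher and 5 were lower, and the median log2 fold change of the members was 0.04, beside -1.08 for all tested genes. On this scale 0.639% of all tested genes were called higher and 62.7% lower. Klkb1 was higher (0.68 ± 0.21 SE, adjusted p = 0.0124). Lower were F13a1 (-2.55 ± 0.59, adjusted p = 0.00192), Cfp (-1.47 ± 0.28, 0.000561), C3 (-0.78 ± 0.25, 0.0149), C4b (-0.76 ± 0.20, 0.00427) and Vtn (-0.60 ± 0.25, 0.0446). Cfp, C4b and F13a1 passed in all 6 leave-one-out fits on this scale, C3 and Klkb1 in 4, and Vtn in 3. Scaled by Alb alone, which itself was 2.85-fold higher, 11 complement and 6 coagulation genes were lower, beside 82.7% of all tested genes. No member was higher on the Alb scale, beside 0.126% of all tested genes, and Klkb1 was at 0.20 (adjusted p = 0.429). The 5 genes lower against the 14 markers were also lower against Alb alone.

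**Figure D3:**
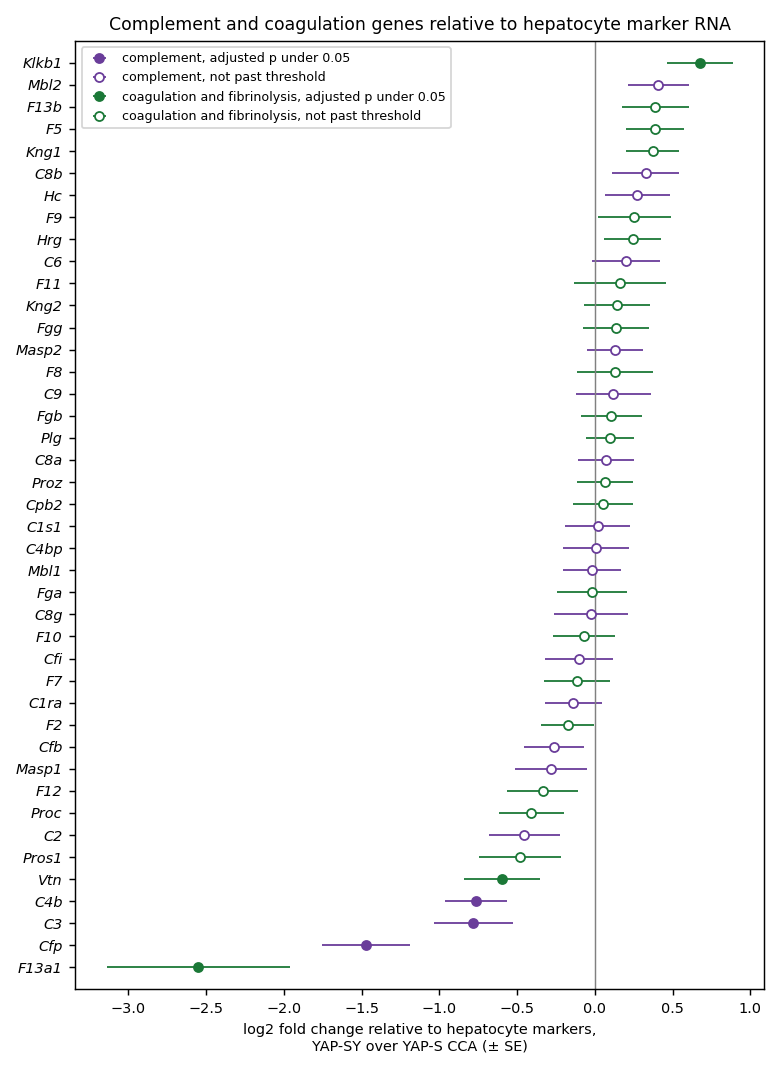
Log2 fold change, YAP-SY over YAP-S CCA, after each tumor was scaled by the mean log2 CPM of 14 hepatocyte markers (points, with SE). Filled points have an adjusted p under 0.05. Most genes lie close to 0, Klkb1 is filled on the right, and Vtn, C4b, C3, Cfp and F13a1 are filled on the left.

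The share of the members in all RNA was compared next. The 42 genes took 5.93%, 4.46% and 4.53% of all counts in YAP-SY CCA tumors, against 3.87%, 4.21% and 3.79% in YAP-S CCA tumors. Complement genes supplied 38.8%, 40.1% and 40.7% of that in YAP-SY CCA, against 45.9%, 44.2% and 51.5% in YAP-S CCA. The groups did not overlap in either measure (exact permutation test, two-sided, p = 0.1 for each, the smallest possible; adjusted p = 0.3 over 30 tests). C3 accounted for 0.677% to 1.04% of all counts in YAP-SY CCA and for 0.933% to 1.15% in YAP-S CCA, and per length it stood at 4.89 to 7.36 times Hc in YAP-SY CCA, against 9.40 to 16.7 times in YAP-S CCA. In log2 the ratio of C3 to Hc averaged 2.62 ± 0.30 in YAP-SY CCA and 3.64 ± 0.41 in YAP-S CCA (SD, n = 3 each; exact permutation p = 0.1, adjusted p = 0.3).

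In mixed tumors no member was called different between YAP-SY and YAP-S. With edgeR 0 of the 42 genes and 0% of all tested genes passed, 1 member (F13a1, -1.07) and 551 of all genes had an unadjusted p under 0.05, and with DESeq2 4 genes were higher and 7 lower, none of them a member. The median fold of the members was 1.07. Log2 fold changes ran from -0.21 to 0.36 apart from F13a1. Kng1 was at 2286, 1641 and 1868 CPM in mixed YAP-SY tumors, against 1647, 1339 and 1881 CPM in mixed YAP-S tumors, and Fgb was at 4605, 3270.1 and 3580.0 CPM in mixed YAP-SY tumors, against 4336, 3381 and 5498 CPM in mixed YAP-S tumors. In both genes the ranges overlapped. F13a1 was at 0.865, 1.40 and 0.467 CPM in mixed YAP-SY tumors, against 1.82, 1.67 and 2.23 CPM in mixed YAP-S tumors, with all 3 YAP-SY tumors below all 3 YAP-S tumors, as for 4.05% of all tested genes. Masp1 was at 106, 98.6 and 103 CPM in mixed YAP-SY tumors, against 98.0, 72.6 and 91.9 CPM in mixed YAP-S tumors, with all 3 YAP-SY tumors above all 3 YAP-S tumors, as for 4.30% of all tested genes. The other 40 members overlapped.

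Whether the effect of YAP-SY differed between CCA and mixed tumors was tested as a difference of differences. It was positive for 25 of the 42 genes, 13 of complement and 12 of coagulation, at an adjusted p under 0.05, beside 5.02% of all tested genes. The 6 smallest p-values belonged to Mbl1 (log2 difference 1.21 ± 0.26 SE, adjusted p = 0.0126), Kng2 (0.996 ± 0.22, 0.0129), C4bp (1.08 ± 0.25, 0.0164), F5 (1.12 ± 0.26, 0.0164), F13b (1.17 ± 0.27, 0.0171) and Kng1 (1.17 ± 0.28, 0.018). Mbl1 was at 189, 127 and 170.3 CPM in mixed YAP-SY tumors, against 204, 148 and 197 CPM in mixed YAP-S tumors, and the ranges overlapped there, unlike those in CCA. C4bp was at 981, 743 and 731 CPM in mixed YAP-SY tumors, against 902, 720.2 and 839 CPM in mixed YAP-S tumors, and F5 at 791, 592 and 680.3 CPM in mixed YAP-SY tumors, against 565, 462 and 629.6 CPM in mixed YAP-S tumors. Kng2 was at 358, 288 and 280.5 CPM in mixed YAP-SY tumors, against 280.0, 231 and 291 CPM in mixed YAP-S tumors, and F13b at 212, 158 and 174 CPM in mixed YAP-SY tumors, against 163, 122 and 165 CPM in mixed YAP-S tumors. The ranges of mixed tumors overlapped in each of these 4 genes. The count hung on single tumors. For complement it was 1 without YAP-S CCA tumor 5 or YAP-S mixed tumor 2, 3 without YAP-S mixed tumor 9, 4 without YAP-S CCA tumor 3, 6 without YAP-SY mixed tumor 5 and 8 without YAP-SY CCA tumor 6. For coagulation it was 2, 3, 3, 5 and 6 without the first 5 of these tumors. On library size alone it was 3 and 4.

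Set against mixed tumors of their own model, CCA tumors had log2 fold changes of opposite sign in YAP-SY and YAP-S, with few calls. Within YAP-SY 40 of 42 genes had a positive log2 fold change and within YAP-S 41 of 42 a negative one, with medians of 0.48 and -0.43, beside -0.01 and -0.02 for all tested genes. Within YAP-SY 0 members were called higher (0.207% of all tested genes) and 1, F13a1, lower (2.70% of all tested genes; log2 fold change -2.11 ± 0.49 SE, adjusted p = 0.0421), and 26 of the 42 had an unadjusted p under 0.05, beside 21.6% of all tested genes. F13a1 was called in 1 of the 6 leave-one-out fits of that comparison. DESeq2 called 9 complement and 10 coagulation genes higher there, beside 2.46% of all genes to which it gave an adjusted p. Within YAP-S edgeR called 0 members and 0% of all genes, with 17 members and 19.8% of all genes at an unadjusted p under 0.05. DESeq2 called 5 complement and 4 coagulation genes lower within YAP-S, beside 2.88% of all genes to which it gave an adjusted p. Closest to the threshold there was C4bp (-0.75 ± 0.18, adjusted p = 0.0609). The marker lists moved with the members. Within YAP-SY all 14 hepatocyte markers had a positive log2 fold change (median 0.49, none called) and 14 of 15 cholangiocyte markers a negative one (median -1.23, 2 called lower). Within YAP-S all 14 hepatocyte markers had a negative log2 fold change (median -0.58) and 12 of 15 cholangiocyte markers a positive one (median 0.73), with none called. Their part in the values of the members was not tested.

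Other genes of the cascades did not all go the way of the plasma proteins. These lists, like the 42 genes, were compiled with earlier results of these data known. Of 12 tested complement genes, mostly of recognition and the early steps but with C7 among them, 5 were higher and 3 lower in YAP-SY CCA. The copies C1rb and C1s2 were higher (2.03-fold and 2.54-fold), and C1qb and C1qc, which with C1qa form the antibody sensor known from macrophages, were 2.75-fold and 2.90-fold lower, C1qa being the third lower gene. C1qb averaged 51.3 ± 23.8 CPM in YAP-SY CCA and 141 ± 19.0 CPM in YAP-S CCA (SD, n = 3 each). Of 22 complement regulators and receptors 13 were higher and 5 lower: Cfhr2, a relative of factor H, was 3.03-fold higher, and Itgax and Itgb2, chains of integrin receptors of leukocytes for C3 fragments, were 5.35-fold and 3.03-fold lower. On library size alone the first list had 0 higher and 3 lower and the second 5 higher and 8 lower, with Cr1l changing sign.

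Of 19 genes that initiate or inhibit clotting 3 were higher and 7 lower (2 and 8 on library size alone). Serpind1 (heparin cofactor II) and Serpinc1 (antithrombin), plasma inhibitors of thrombin, were 2.56-fold and 2.28-fold higher. Procr, the cell surface receptor of protein C, and Vwf, the adhesion factor of endothelium and platelets, were 5.33-fold and 3.07-fold lower. The vitamin K cycle and the export of clotting factors had 5 of 7 genes higher, among them Lman1, which carries F5 and F8 out of the endoplasmic reticulum (1.74-fold), and Vkorc1, the reductase that warfarin blocks (1.96-fold). On library size alone none of these 7 was called, and Ggcx changed sign. Of 13 other fibrinolysis genes 1 was higher and 9 were lower, with a median log2 fold change of -1.55, and on library size alone 0 were higher and 10 lower. Serpinf2, the plasmin inhibitor of plasma, was 1.75-fold higher. Plat, which encodes tissue plasminogen activator, fell to 8.67 ± 2.67 CPM in YAP-SY CCA, against 53.5 ± 10.6 CPM in YAP-S CCA (6.15-fold lower, adjusted p = 0.000107), and Anxa2, a surface receptor for it and for plasminogen, was 3.39-fold lower. The 9 lower genes of this list stood beside lower fibroblast markers, which summed to 544 to 740 CPM in YAP-SY CCA and 2074 to 2570 CPM in YAP-S CCA, with 9 of 12 lower and none at 0. Neutrophil markers summed to 6.51 to 8.68 CPM in YAP-SY CCA and to 16.9 to 20.9 CPM in YAP-S CCA, with 5 of 8 tested lower, and with Mmp8 and Camp at 0 in YAP-SY CCA and Camp at 0 in YAP-S CCA. The part of these cells in the lists was not tested.

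The liver transcription factors gave 5 higher and 0 lower of 12 in CCA. Hnf4a was at 846, 625 and 699 CPM in YAP-SY CCA, against 338, 396 and 285 CPM in YAP-S CCA, without overlap, and was 2.13-fold higher (adjusted p = 0.00143). Cebpa was at 165, 233 and 234 CPM in YAP-SY CCA, against 109, 86.0 and 103 CPM in YAP-S CCA, also without overlap, and was 2.12-fold higher (adjusted p = 0.00278). Nr1h4, the bile acid receptor FXR, was 2.10-fold higher (adjusted p = 0.000247). On library size alone 3 of the 12 were higher and 1 lower. The cell type lists shifted on that scale as well: hepatocyte markers gave 7 higher and 0 lower, macrophage markers 0 and 5 (Clec4f changing sign), endothelial markers 0 and 6 (Kdr and Ptprb changing sign), platelet markers 0 and 2, neutrophil markers 0 and 7, fibroblast markers 0 and 11 and cholangiocyte markers 0 and 13.

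SB1 is a cultured line, and its counts show which of these genes cells of the YAP-S-CCA genotype label transcribe in culture. The cells carried duct markers (Krt19 at 1101, 1403 and 1781 CPM, Spp1 at 1073, 871 and 770 CPM), with Epcam near 0 (0.197, 0.396 and 0.114 CPM), and also Alb (1113, 615 and 610 CPM) and Hnf4a (57.3, 54.6 and 52.6 CPM). The cell line table was made apart from the tumor table, so no fold is given between them. Of the 42 genes 15 had at least 1 CPM in all 3 samples, 9 of complement and 6 of coagulation, which is 35.7%, beside 29.7% of the 43346 genes of the table. At 0.5 CPM it was 18. C8b, F11, F7, F9, F10 and F13b had no count in any sample, and a count of 0 allows up to 3 counts, or 0.098 to 0.119 CPM. In all, 18 genes had no more than 3 counts in every sample.

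In SB1 the complement genes with the most RNA were C3 and a few proteases of the starting routes. C3 was highest at 248, 399 and 316 CPM, then Masp1 at 59.9, 57.8 and 56.4 CPM, C1s1 at 24.9, 29.5 and 53.9 CPM, C1ra at 21.0, 24.5 and 29.6 CPM and Cfb at 10.3, 12.6 and 19.8 CPM. C6, C8a, C8b and Hc had at most 3 counts in a sample, C9 was at 0.819, 0.357 and 1.21 CPM, C8g at 1.28, 0.911 and 0.833 CPM, and the lectins Mbl1 and Mbl2 and their protease Masp2 had at most 3 counts. In the clotting proteases the same held for F7, F9, F10, F11 and F12, and F2 was at 0.360, 0.238 and 0.189 CPM. Protein S (Pros1) was at 9.86, 10.8 and 9.999 CPM and F5 at 5.44, 3.69 and 7.01 CPM.

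Fibrinogen came apart in SB1. Fgb was at 93.4, 77.7 and 65.9 CPM, whereas Fga was at 0.524, 0.357 and 0.038 CPM and Fgg at 0.098, 0.119 and 0.076 CPM. Fgb thus supplied 99.3% to 99.8% of the fibrinogen reads, and per length Fga was at 0.00710, 0.00581 and 0.000727 of Fgb. In each of the 12 tumors Fga exceeded Fgb per length. The kininogens stood in the reverse order of tumors: per length Kng2 was at 8.75, 7.92 and 12.3 times Kng1 in SB1 cells, and at 0.166 to 0.171 of Kng1 in YAP-SY CCA tumors and 0.180 to 0.216 in YAP-S CCA tumors. The 3 fibrinogen genes lie within one stretch of chromosome 3.

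**Figure D4:**
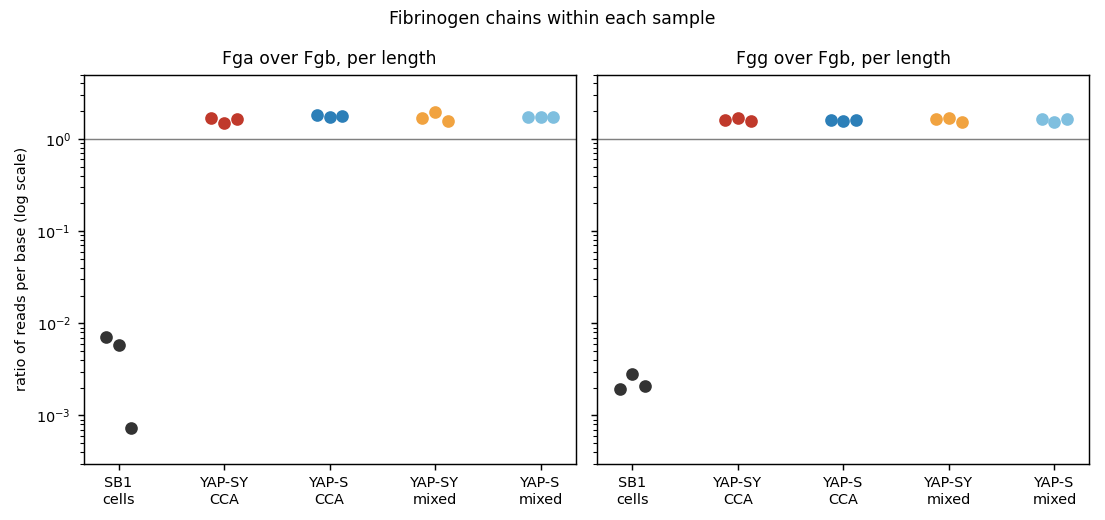
Ratio of Fga (left) and Fgg (right) to Fgb, as reads per base of gene length on a log axis, in each SB1 sample and each tumor. All tumors lie between 1.48 and 1.94 on both panels, and SB1 samples lie between 0.000727 and 0.00710 on the left and between 0.00191 and 0.00278 on the right.

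**Figure D5:**
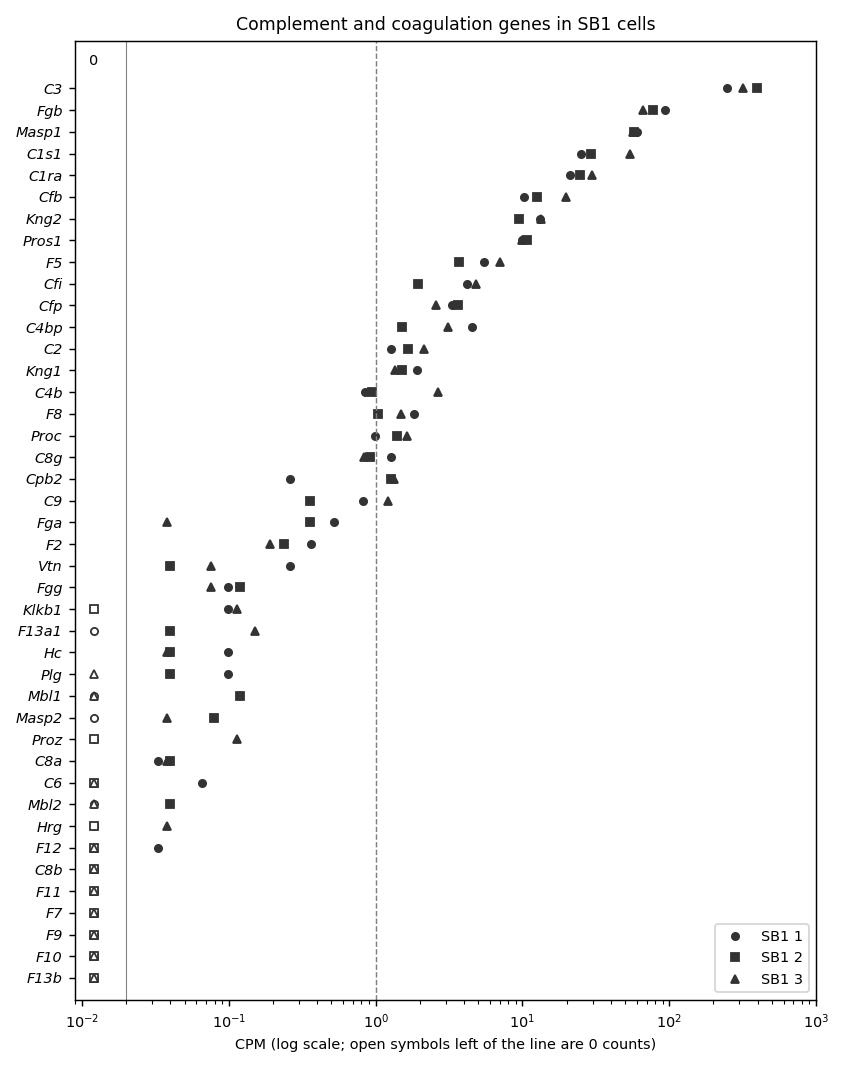
CPM of the 42 genes in 3 SB1 samples on a log axis, ordered by mean; open symbols left of the line are samples with no count, and the dashed line marks 1 CPM. C3, Fgb and Masp1 lead, and 6 genes have no count in any sample.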

How the data were processed

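RNA of 12 tumors and 3 SB1 samples was sequenced (miRNeasy extraction, TruSeq mRNA v2 libraries, per the labels' protocols; STAR and mm10, per the submitters' processing notes). The authors deposited counts per gene, which in the tumor table are named corrected in a way not given in the sources used here, and raw counts for the cell lines. The counting tool and annotation are not given in the sources used here. The 3 SY1 samples were not analysed here, and 3 columns of the cell line table match no sample and were not used. Genes were tested with edgeR 4.0.16 (TMM scaling, filter by expression, quasi-likelihood F-test, all 12 tumors in 1 fit with 1 term per group, R 4.3.3), with p-values adjusted by Benjamini-Hochberg over 18318 genes and called at 0.05. A standard error is the log2 fold change divided by the square root of F. Alternatives used limma 3.58.1 and DESeq2 1.42.0. The kit does not mark strand, so reads of overlapping genes cannot be told apart. SB1 values are CPM with no test. Intervals and floors of 3 counts cover counting error only. The members, lists and tests were chosen with earlier results of these data known. Named genes are the 2 with the smallest p in each role, plus F13a1. C4b, Cfp, Klkb1, Masp1, Vtn, the genes given only with a fold, and Cebpa, Cr1l, Ggcx and C1qa were named after their values were seen. So were C7, and Krt19 and Spp1 in tumors.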

Additional observations from a re-analysis of the deposited data

Results flagged for a closer look

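By a test of the difference itself, the effect of YAP-SY was greater in CCA than in mixed tumors for 25 of the 42 genes, beside 5.02% of all tested genes. This count was not stable. Without YAP-S CCA tumor 5 it was 1 complement and 2 coagulation genes, beside 201 of all genes. On library size alone it was 3 and 4, beside 150 of all genes. On the log2 scale the 6 with the smallest p-values differed by 1.21 (Mbl1), 0.996 (Kng2), 1.08 (C4bp), 1.12 (F5), 1.17 (F13b) and 1.17 (Kng1), each as CCA minus mixed. The calls of Mbl1 and F5 stood in all settings run. That of Kng2 ended on library size alone. That of C4bp ended on library size alone and without YAP-S CCA tumor 5 or YAP-S mixed tumor 2, that of F13b without either of these tumors, and that of Kng1 without YAP-S CCA tumor 5 or YAP-S mixed tumor 9. Groups of 3 tumors are too small to test for a single outlying tumor.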

How the results depend on the processing

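The counts of members in the CCA comparison held to within 1.5 times in all settings but these. On library size alone 1 complement gene was lower and 13 coagulation genes were higher, with 760 and 8064 of all genes higher and lower, and Vtn turned to -0.070. The 1 lower coagulation gene became 0 under limma-voom, with the replicate block and when only both groups compared were fitted. Leaving out each tumor in turn gave 15 to 16 complement and 16 to 20 coagulation genes higher, 0 to 1 coagulation genes lower, and 2090 to 3278 of all genes higher and 3031 to 3664 lower. In mixed tumors DESeq2 called 4 genes higher and 7 lower, and no left-out tumor gave a call.

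For the difference between CCA and mixed, library size alone gave 3 complement and 4 coagulation genes, with 150 of all genes positive and 4180 negative, and DESeq2 gave 1704 positive genes. Leaving out tumors gave 1 to 13 and 2 to 13 members, with 201 to 1046 of all genes positive and 856 to 2031 negative. For CCA against mixed within YAP-SY, higher and lower calls over all genes were 18 and 1988 on library size alone, 451 and 1383 with DESeq2, 2 and 40 with limma-voom, 2 and 44 with its replicate block, 58 and 801 with no filter, and 0 and 0 in the fit of those groups alone. Members there were 9 complement and 10 coagulation higher with DESeq2, 1 complement higher with no filter, and 0 lower with limma-voom, its block and the fit of those groups alone. Left-out tumors gave 0 to 1 coagulation genes lower, 0 to 36 of all genes higher and 0 to 559 lower. Within YAP-S the counts were 682 and 29 on library size alone, 97 and 20 with DESeq2 size factors, 1037 and 476 with DESeq2, 618 and 140 with limma-voom, 767 and 224 with its block, 448 and 122 with no filter, 213 and 56 at 1 CPM in 3 tumors, and 1602 and 791 in the fit of those groups alone. Members lower there were 5 complement and 4 coagulation with DESeq2, 2 and 1 with limma-voom, 3 and 3 with its block, 1 complement with no filter, and 3 and 3 in the fit of those groups alone. The cause of these shifts was not tested.

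On the hepatocyte scale Alb alone gave 11 complement and 6 coagulation genes lower, 0 coagulation genes higher, and 23 of all genes higher and 15157 lower. Left-out tumors gave 2 to 3 complement genes lower, 1 to 2 coagulation genes lower, 0 to 2 higher, and 48 to 144 of all genes higher and 8514 to 11291 lower. SB1 had 15 to 17 members at 1 CPM with a sample left out. Over single genes, 336 of the leave-one-out values were counted as unchanged and 39 lost their call. Of the other settings 376 were counted as unchanged, 23 lost the call, 1 gained it and 1 turned sign. The unchanged values include CPM of genes in SB1, which have no test or threshold. These were counted as unchanged when the mean moved by less than its SD. Fewer tested values than these counts thus kept their side of the threshold. Tumors numbered 3, 5 and 9 occur in 2 groups each, and the deviations of same-numbered tumors correlated by 0.179, 0.349 and 0.0896. YAP-S CCA tumors 3 and 5 matched the YAP-SY mixed tumor of their own number best, but YAP-SY mixed 9 matched YAP-SY CCA 8. The best match was read from 1 tumor of each number only, and the labels do not say that numbers pair tumors. With that replicate block (correlation 0.22) 16 complement and 22 coagulation genes stayed higher in CCA. Depth limits F13a1, which had 6 to 10 counts in YAP-SY CCA tumors.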
